A study of Mus musculus with 18 samples.

Results

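The first day of differentiation was examined by comparing 3 libraries of mESCs collected on day 1 (the group labelled Day1_differentiation) with 3 libraries collected on day 0, before differentiation (Day0_differentiation), across all genes. These 6 libraries are part of a time course of 12 libraries, 3 per day from day 0 to day 3, in a series of 18 libraries. All 6 were made from total RNA of E14 embryonic stem cells of the genotype Rex1GFPd2-Cas9. E14 is an established mouse line, *Rex1* (listed in the files as *Zfp42*) drives a short-lived GFP in these cells, and Cas9 is expressed from the *Rosa26* locus. The genotype is the same on both days, and the line is the wild type of the study, so the values describe 1 cell line. The medium and the starting culture of the time course are not given in the sources used here. For its other assays the study describes mESCs kept either on feeder cells in serum with LIF or without feeders in 2iL (inhibitors of Mek and Gsk3 with LIF), and differentiation in NDiff227, a medium without LIF and inhibitors. Nothing states that the libraries of a day came from separate cultures, so the p values measure the spread between these samples only, which may be technical.

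Naive pluripotency is the state of the epiblast before implantation. In culture it is held by LIF, which signals through Stat3, and by low activity of Mek-ERK and Gsk3, and it rests on a network of transcription factors that includes Nanog, Esrrb, Klf4, Tfcp2l1 and Tbx3. When these cues are withdrawn, mESCs resolve that network and pass through a formative state, marked by Otx2, Pou3f1, Fgf5 and the de novo DNA methyltransferases, before they become competent to form the germ layers. The comparison of day 1 with day 0 shows what had happened to the RNA of these genes, and to the rest of the transcriptome, within the first day.

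The authors' estimated counts per transcript were summed per gene and tested for 14382 genes in a fit of all 12 time-course libraries with edgeR's quasi-likelihood test. Calls were made at an adjusted p (Benjamini-Hochberg) under 0.05. Levels are in CPM, counts scaled to the TMM-adjusted library size, and an error after ± is the SD of 3 libraries. The total of estimated counts was 12503005 to 15305054 per library, and 3 counts, the limit that a count of 0 allows, corresponded to 0.199 to 0.245 CPM, for counting error only. Libraries of a day resembled each other closely, with a Pearson r across genes of 0.989 to 0.993 within a day and 0.93 to 0.937 between the days, where genes are not independent replicates. The TMM factors of the day 1 libraries (0.925 to 0.939) lay below those of the day 0 libraries (0.99 to 1.02), and the top 10 genes by counts took 5.16% to 5.2% of the counts on day 1 and 4.71% to 4.8% on day 0.

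On day 1, 8754 of the 14382 genes differed from day 0, which is 60.9% of the genes tested. Of these, 4330 were higher (30.1%) and 4424 lower (30.8%). The median log2 fold change of all genes was 0.00. Many changes were small, and 4046 of the called genes changed less than 1.5-fold. A change of at least 2-fold was found in 2850 called genes (19.8%), of which 1204 were higher (8.37%) and 1646 lower (11.4%), and 225 rose and 204 fell at least 8-fold. The number of 2-fold changes was smaller with limma on log2(TPM + 1) (639 higher and 1082 lower) and among genes with at least 10 counts in every library (654 higher and 1130 lower). Such changes were found in 35.9% of the 1913 genes under 1 TPM (the authors' level per transcript length) and in 5.92% of the 1722 genes at 100 TPM or more. In 9751 genes (67.8%) the libraries of the 2 days did not overlap. With most genes called, the lists of genes below are read against these shares and against the median of all genes.

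**Figure D1:**
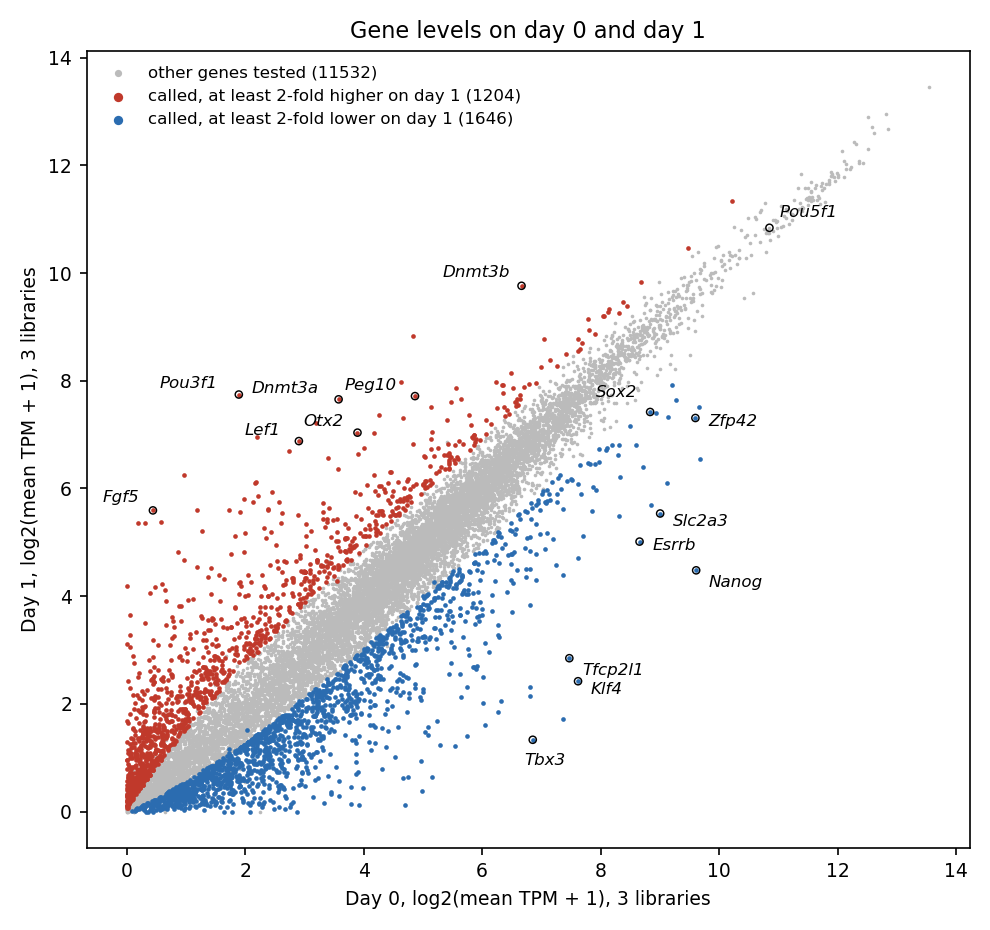
Levels of the 14382 genes tested, as log2(mean TPM + 1) of 3 libraries on day 0 (horizontal) and day 1 (vertical). Genes called and at least 2-fold higher (1204, red) or lower (1646, blue) on day 1 are coloured, and *Pou5f1* lies on the diagonal, away from *Nanog*, *Tfcp2l1*, *Klf4* and *Tbx3* below it and *Dnmt3b*, *Pou3f1* and *Fgf5* above it.

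Genes of the naive network fell together. Of 20 naive pluripotency genes, 16 were lower on day 1, 14 of them at least 2-fold, 1 was higher and 3 were not called, where 30.8% of all genes were lower. The list had a median log2 fold change of -2.54. *Nanog*, a homeodomain factor at the centre of the network, was at 839, 927 and 810.2 CPM on day 0 and 22.7, 23.7 and 26.1 CPM on day 1 (log2 fold change -5.15, SE 0.23, adjusted p = 3.75e-08). In TPM, *Nanog* was at 782 ± 60.1 on day 0, the 161st of the 24296 genes, and at 21.3 ± 1.84 on day 1. The T-box factor *Tbx3* was at 273, 292 and 314 CPM on day 0 and 3.87, 3.19 and 5.14 CPM on day 1 (log2 fold change -6.18, SE 0.13, adjusted p = 4.44e-17), and the Krüppel-like factor *Klf4*, a direct target of Stat3, at 299.8, 321 and 338 CPM on day 0 and 6.85, 7.37 and 8.16 CPM on day 1 (log2 fold change -5.42, SE 0.18, adjusted p = 1.63e-10). *Prdm14*, which in naive cells holds down the de novo methyltransferases and Fgf signalling, was at 46.6, 46.7 and 48.6 CPM on day 0 and 0.745, 0.836 and 0.816 CPM on day 1 (log2 fold change -5.87, SE 0.17, adjusted p = 1.46e-15). For these 4 genes every day 0 library was more than 10 times as high as every day 1 library.

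Other naive factors had smaller log2 fold changes. *Tfcp2l1*, a grainyhead-like factor downstream of LIF, was at 887, 752 and 1101 CPM on day 0 and 31, 31.5 and 38.3 CPM on day 1 (log2 fold change -4.76, SE 0.14, adjusted p = 9.47e-12), and *Esrrb*, an orphan nuclear receptor and a target of Gsk3 inhibition, at 895, 887 and 983 CPM on day 0 and 69, 72.3 and 83.9 CPM on day 1 (log2 fold change -3.62, SE 0.09, adjusted p = 4.92e-16). *Zfp42*, the gene behind the Rex1GFP reporter, was at 671, 738 and 753 CPM on day 0 and 142, 148 and 170.4 CPM on day 1 (log2 fold change -2.23, SE 0.09, adjusted p = 6.24e-13), about 5-fold lower, while its libraries did not overlap between the days. The fall was also larger than 2-fold for the nuclear receptor *Nr5a2* (-3.33), for *Klf5* (-2.90) and *Klf2* (-2.79), for the methylcytosine dioxygenase *Tet2* (-2.28), for *Fbxo15* (-2.06) and *Tcl1* (-4.99), and, close to 2-fold, for *Nr0b1* (-1.03, all log2 fold changes). *Nr0b1* stood at 143 ± 23.5 CPM on day 0 and 69.8 ± 7.14 CPM on day 1 and at 2.1 ± 0.571 CPM on day 2. *Pecam1* (-0.89) and the cell cycle factor *Mybl2* (-0.65) fell by less than 2-fold.

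The list was not uniform. *Dppa5a*, an RNA-binding protein, was at 889, 918 and 845 CPM on day 0 and 715, 718 and 661 CPM on day 1, and *Fgf4*, the Fgf ligand that mESCs make themselves, at 269.8, 281 and 274 CPM on day 0 and 399, 418 and 394 CPM on day 1. Neither was called in the main fit, although their libraries did not overlap. Of 14 alternative fits, 6 called *Dppa5a* lower and 4 called *Fgf4* higher. Both were called with a block for the replicate number, among genes with at least 10 counts in every library, and when the day 0 and day 1 libraries were fitted alone. In that last fit the log2 fold change was -0.35 for *Dppa5a* and 0.54 for *Fgf4*. *Dppa5a* was also called with upper-quartile scaling and limma on TPM, and *Fgf4* with DESeq2. *Gbx2*, a homeobox gene that LIF and Fgf signals both reach, was at 22.7, 18.8 and 36.1 CPM on day 0 and 60.4, 58.9 and 67.5 CPM on day 1 (log2 fold change 1.27, SE 0.23, adjusted p = 9.15e-04). *Dppa3* was at 0.708 to 1.47 CPM in all 6 libraries, so its change could not be read at this depth.

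The formative genes rose together. Of 18 formative pluripotency genes, 17 were higher on day 1, 14 of them at least 2-fold, none was lower (0 at adjusted p under 0.05 with edgeR, 0 at an unadjusted p under 0.05, and 0 with DESeq2), and the median log2 fold change was 2.75. *Fgf5*, the classical marker of the post-implantation epiblast, went from 0.573, 0.464 and 0.315 CPM, at most 7 counts per library, to 68.8, 72.4 and 57.8 CPM (log2 fold change 7.18, SE 0.20, adjusted p = 2.27e-15). *Pou3f1* (Oct6), a POU factor of the early epiblast, was at 4.5, 4.64 and 3.93 CPM on day 0 and 369, 378 and 335 CPM on day 1 (log2 fold change 6.36, SE 0.12, adjusted p = 1.30e-17). *Otx2*, the homeobox factor that redirects Pou5f1 to new enhancers, was at 17, 18.6 and 12 CPM on day 0 and 157, 155 and 158 CPM on day 1 (log2 fold change 3.29, SE 0.15, adjusted p = 1.10e-09). In these 3 genes all day 1 libraries lay far above all day 0 libraries. The epithelial factor *Grhl2* (4.33), the Wnt effector *Lef1* (4.11), *Sall2* (3.84) and the Sox factors *Sox3* (3.57), *Sox4* (2.31) and *Sox11* (2.18) rose more than 4-fold, as did *Foxp1* (2.02). *Tcf15* (1.54), *Zic5* (1.06), *Lin28b* (0.96) and *Zic2* (0.74) rose less, and *Tead2* was at 116 ± 5.62 CPM on day 0 and 128 ± 5.13 CPM on day 1 and not called. The rise of *Etv4* (0.70) was no longer called in 4 of 14 alternative fits, among them that of day 0 and day 1 alone.

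**Figure D2:**
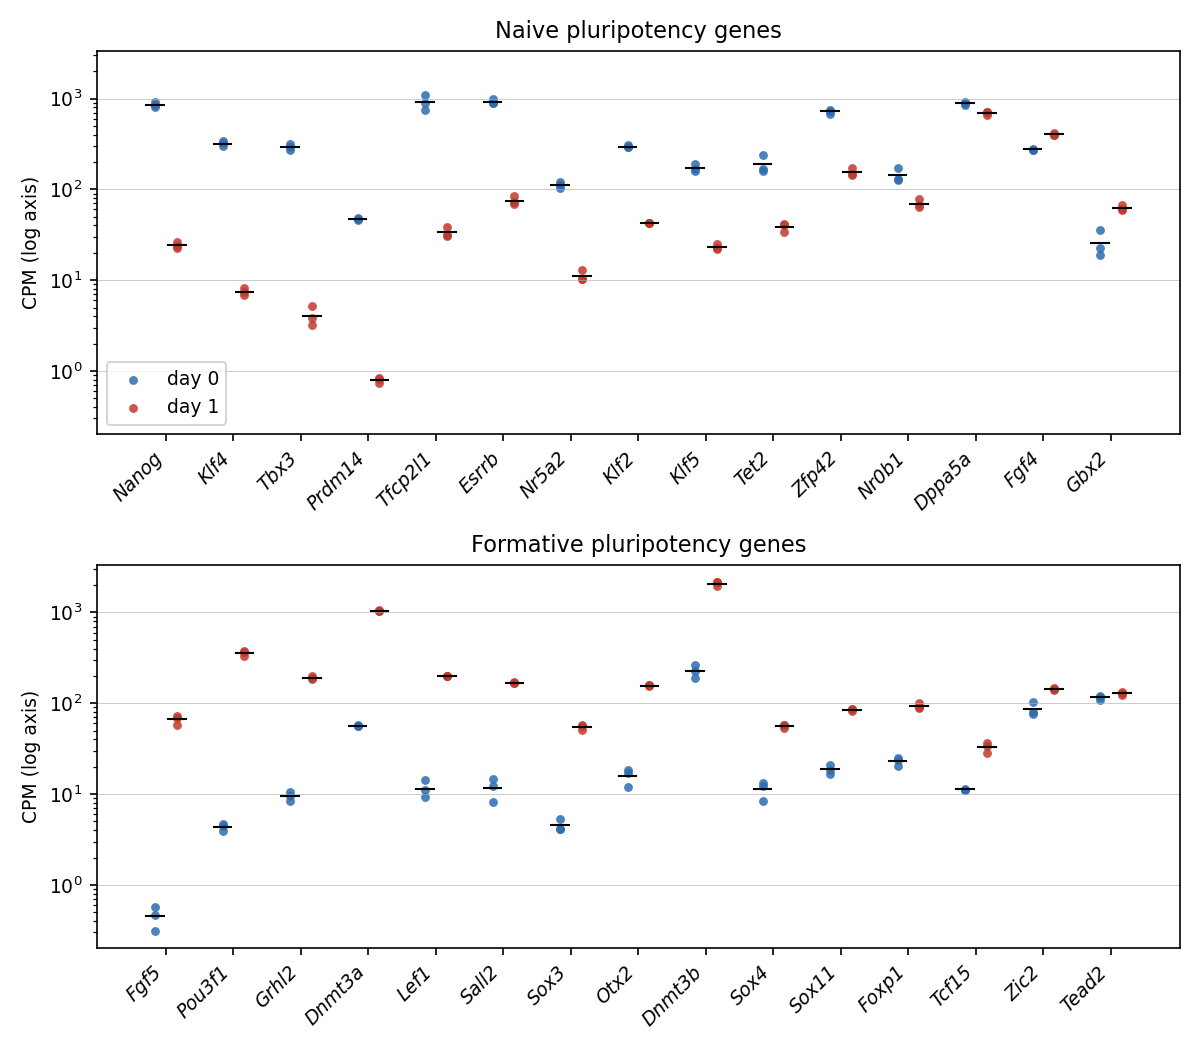
CPM of 15 naive (top) and 15 formative (bottom) genes in each of the 3 libraries of day 0 (blue) and day 1 (red), on a log axis, with bars at the means. *Nanog*, *Klf4*, *Tbx3* and *Prdm14* are separated by more than 10-fold, *Dppa5a* and *Fgf4* by less than 2-fold, and *Fgf5* starts under 1 CPM.

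The general pluripotency genes, which both states share, went in both directions. Of 12, 5 were higher and 3 lower, with a median log2 fold change of 0.51. *Pou5f1* (Oct4) was at 1190.3, 1141 and 1261 CPM on day 0 and 1248, 1285 and 1236 CPM on day 1, and the libraries of the 2 days overlapped. Per length it was at 1845 ± 74.4 TPM on day 0 and 1832 ± 15 TPM on day 1. *Sox2*, its partner, was at 558, 638 and 573 CPM on day 0 and 227, 220.3 and 246 CPM on day 1 (log2 fold change -1.35, SE 0.07, adjusted p = 6.97e-12). *Tdgf1*, the Nodal co-receptor, also fell (-0.96), as did *Sall4* (-0.41), while *Lin28a* (1.22), *Utf1* (1.21), *Dppa4* (0.93), *Zfp281* (0.72) and *L1td1* (0.48) rose. *Dppa2* was at 114 ± 18.5 CPM on day 0 and 186 ± 1.08 CPM on day 1 and *Foxd3* at 81.2 ± 11.6 CPM on day 0 and 119 ± 5.37 CPM on day 1, and both were called only in the fit of the day 0 and day 1 libraries alone.

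Ranked by fold change, the falls were led by genes of several kinds. The order holds called genes without overlap between the days whose log2 CPM averaged 1 or more. Beside *Tbx3*, *Prdm14*, *Klf4*, *Nanog*, *Tcl1* and *Bcl3*, the 15 largest falls held the small GTPase *Mras* (67.2 ± 12.4 CPM on day 0 and 0.693 ± 0.256 CPM on day 1, log2 fold change -6.58), the connexin *Gjb5* (-5.41) and the water channel *Aqp3* (-5.46). They also held the cation channel *Trpm1*, the phospholipase *Pla2g4e*, the riboflavin transporter *Slc52a3*, the bZIP factor *Jdp2* and the adaptor *She*, each at no more than 8 counts in any day 1 library. Ranked by the difference in mean CPM, the glucose transporter *Slc2a3* (Glut3) fell most. It was at 1141, 1109 and 1064 CPM on day 0 and 106, 90.3 and 111 CPM on day 1 (log2 fold change -3.43, SE 0.14, adjusted p = 1.08e-09). CPM are relative and not scaled to transcript length, so the order in TPM can differ. After *Tfcp2l1*, *Esrrb* and *Nanog*, *Slc2a3* was followed in CPM by *Tdh*, the mitochondrial threonine dehydrogenase that mESCs depend on, at 782, 679 and 896 CPM on day 0 and 178, 183 and 194 CPM on day 1 (log2 fold change -2.09, SE 0.25, adjusted p = 8.58e-05). Next came *Zfp42*, then *Spp1* (osteopontin, -3.07), the branched-chain aminotransferase *Bcat1* (-1.27), *Mybl2* and the asparagine synthetase *Asns* (-1.57).

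The 15 largest rises were led by *Enpp2* (autotaxin, the enzyme that makes lysophosphatidic acid), at 0.409, 0.199 and 0.157 CPM on day 0 and 86.7, 87.4 and 62.5 CPM on day 1 (log2 fold change 8.25, SE 0.29, adjusted p = 3.05e-11, with at most 5 counts in a day 0 library). With *Fgf5* and *Pou3f1* they included the transcription factor genes *Vrtn* (0.808 ± 0.305 CPM on day 0 and 71.1 ± 7.73 CPM on day 1, log2 fold change 6.46), *Wt1* (1.58 ± 0.647 CPM on day 0 and 131 ± 4.73 CPM on day 1, 6.33), *Zfp467* (5.33), *Zfp608* (5.05) and *Bcl11a* (4.99). Others were the membrane protease *Mmp25* (5.50), the protocadherin *Pcdh1* (5.27), *Gadd45g* (5.16), the cyclin *Ccno* (4.75), *Slc35d3* (5.49) and the Fgf ligand *Fgf15* (4.71). The carbonic anhydrase *Car4* was at 3 counts or fewer in every day 0 library and at 28.8, 30.4 and 22 CPM on day 1. By the difference in mean CPM, *Cmah*, a hydroxylase of sialic acid, gained most (5192 ± 352 CPM on day 0 and 7844 ± 208 CPM on day 1, 0.60), followed by *Dnmt3b*. *Mrgpra6* (1.05), next in that order, belongs to a family of near-identical receptor genes between which kallisto divides reads, and its value is uncertain. *Ptma*, *Actb*, *Dnmt3a*, *Ncl*, *Hspa8*, *G3bp2* and *Eif4g2* followed, with log2 fold changes of 0.22 (*Hspa8*) to 4.21 (*Dnmt3a*).

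Some of the gene lists that follow are shown in one plot. Each list is described by how many of its members were called and, for many, by its median.

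**Figure D3:**
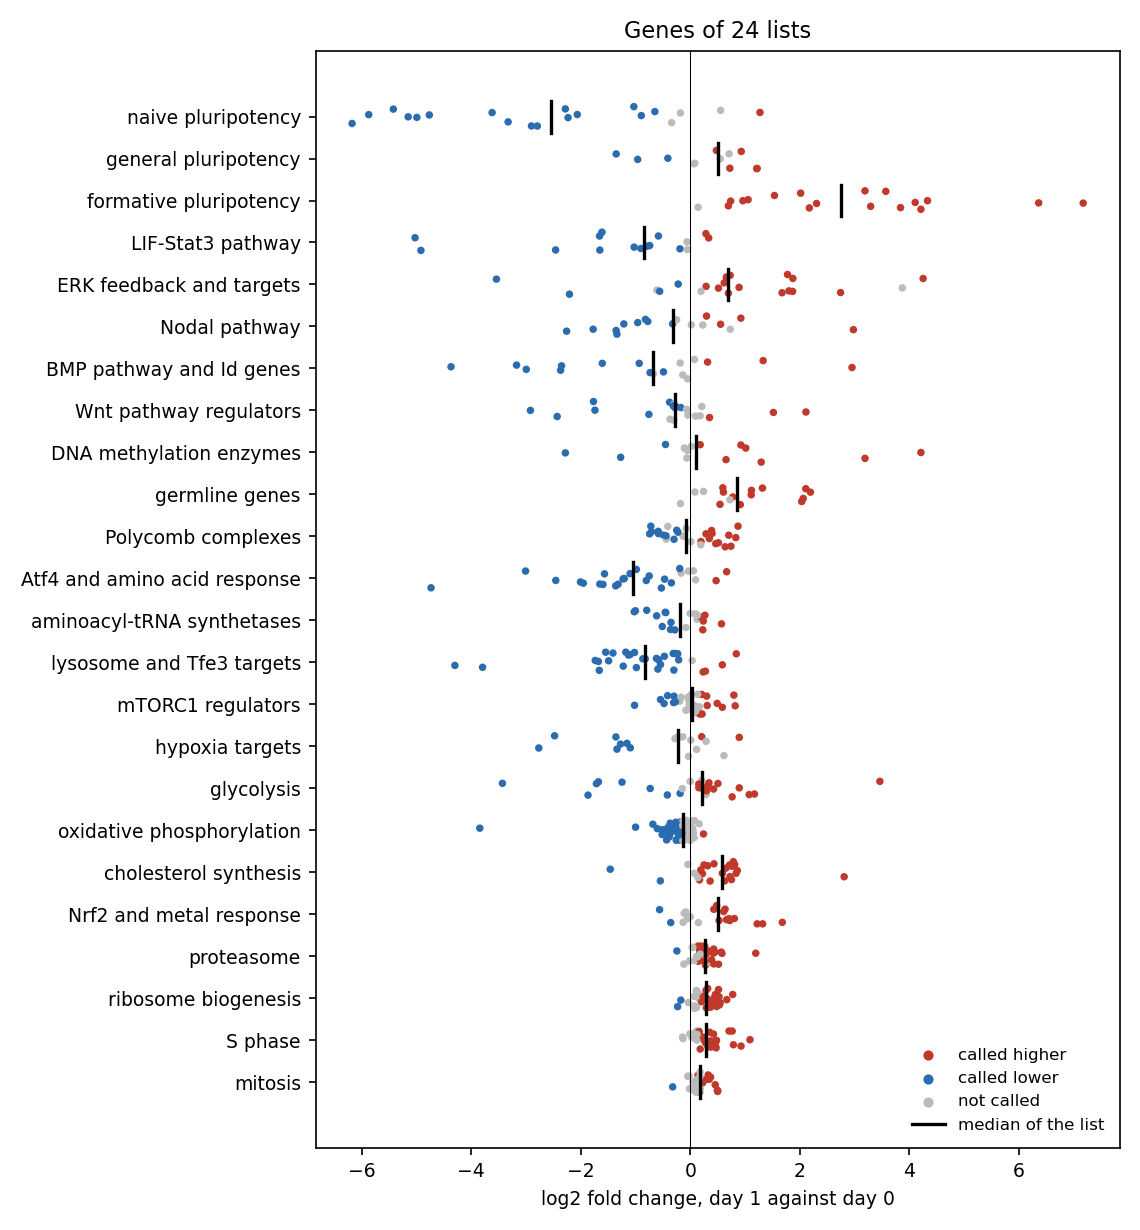
Log2 fold changes of day 1 against day 0 for the genes of 24 lists (horizontal axis), with each point a gene, called higher (red), called lower (blue) or not called (grey), and a bar at the median of the list. The median of the naive list is -2.54 and that of the formative list 2.75, while the medians of the lists of general metabolism and cell division lie between -0.14 (oxidative phosphorylation) and 0.59 (cholesterol synthesis).

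Genes of the LIF pathway fell. LIF binds Lifr and Il6st (gp130), Jak kinases then activate Stat3, and Socs3 is both its target and its inhibitor. Of 16 genes tested, 12 were lower, 7 of them at least 2-fold, and 2 were higher, with a median of -0.85. Among the members named here, *Bcl3* and *Socs3* fell furthest. *Socs3* was at 87.9, 79.7 and 116 CPM on day 0 and 3.35, 2.74 and 3.26 CPM on day 1 (log2 fold change -4.92, SE 0.23, adjusted p = 1.50e-09), and *Bcl3*, an IκB family member, at 41, 38.8 and 49.3 CPM on day 0 and 1.41, 1.44 and 1.06 CPM on day 1 (log2 fold change -5.03, SE 0.23, adjusted p = 3.14e-12). *Stat3* was at 146, 147 and 154 CPM on day 0 and 26, 27 and 28.4 CPM on day 1 (log2 fold change -2.46, SE 0.07, adjusted p = 1.06e-15). The 3 genes did not overlap between the days. The receptor subunit *Il6st* (-1.66), *Junb* (-1.61) and the kinase *Pim3* (-1.02) fell at least 2-fold as well. *Ptpn11* (0.34) and *Tyk2* (0.29, not called with limma on TPM) rose, and *Socs2* (101 ± 7.42 CPM on day 0 and 97 ± 4.48 CPM on day 1) and *Sgk1* (395 ± 4.78 CPM on day 0 and 381 ± 8.36 CPM on day 1), the members with the highest TPM, were not called. Of 13 interferon-stimulated genes tested, 8 were lower (7 at least 2-fold) and 5 higher (4 at least 2-fold). Among all genes, 30.8% were lower and 30.1% higher. *Ifitm1* (-1.81), *Ifitm3* (-1.48), *Oas1a* (-2.79) and *Irf9* (-1.83) were among those that fell, and *Bst2* (16.9 ± 0.876 CPM on day 0 and 79.5 ± 7.5 CPM on day 1, 2.23) rose.

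Genes that report Fgf-ERK signalling mostly rose. ERK activity induces its own brakes, the dual-specificity phosphatases and the Sprouty and Spred proteins, and Ets and Egr transcription factors. Of 21 such genes tested, 14 were higher and 4 lower, with a median of 0.70 (0.66 with *Egr2*, which was at 0 in every day 0 library, set at the level of 3 counts). *Dusp4* was at 6.71, 6.17 and 8.74 CPM on day 0 and 138, 138 and 135 CPM on day 1 (log2 fold change 4.25, SE 0.10, adjusted p = 4.44e-17) and *Dusp6* at 24.8, 28.2 and 38 CPM on day 0 and 103, 106 and 108 CPM on day 1 (log2 fold change 1.80, SE 0.12, adjusted p = 1.57e-08). *Egr1* was at 3.85, 7.89 and 1.89 CPM on day 0 and 23.4, 41.8 and 29.5 CPM on day 1 (log2 fold change 2.75, SE 0.75, adjusted p = 0.0116), and *Myc* at 23.5 ± 13 CPM on day 0 and 85.6 ± 5.89 CPM on day 1 (1.87). *Fos*, however, was lower, at 15.7, 18.2 and 11 CPM on day 0 and 1.71, 1.29 and 0.816 CPM on day 1, with a log2 fold change of -3.54 that was no longer called without day 1 replicate 2 (adjusted p = 0.0513) or 3 (adjusted p = 0.0549). *Dusp14* also fell (-2.21). *Etv5*, the Ets gene with the highest TPM of the list, was at 581 ± 48.3 CPM on day 0 and 666 ± 14.8 CPM on day 1 and not called. Of 14 Fgf ligands and receptors, 6 rose (3 to 7 over the alternative fits) and 2 fell. Besides *Fgf5* and *Fgf15*, the receptor *Fgfr2* rose (6.0 ± 0.948 CPM on day 0 and 29.1 ± 2.25 CPM on day 1, 2.29), the ligand *Fgf17* fell (-2.09), and *Fgfr1*, the most abundant receptor in TPM, was at 113 ± 3.92 CPM on day 0 and 120.0 ± 8.98 CPM on day 1 and not called.

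Wnt target genes and Wnt receptors were divided. Of 15 β-catenin targets tested, 6 were lower (3 to 7 over the alternative fits) and 4 higher. *Axin2*, a general feedback target, was at 49.4, 40.7 and 64.8 CPM on day 0 and 20.5, 20.1 and 19.98 CPM on day 1 (log2 fold change -1.35, SE 0.14, adjusted p = 3.59e-07), and the Wnt-inactivating enzyme *Notum* at 44.1, 39.2 and 51.6 CPM on day 0 and 12.4, 13 and 14.8 CPM on day 1 (log2 fold change -1.74, SE 0.14, adjusted p = 6.23e-09). *Apcdd1* fell too (-1.05), whereas *Lef1* rose (11.5 ± 2.55 CPM on day 0 and 200.2 ± 1.64 CPM on day 1) and *Tcf7* rose slightly (0.31). Without genes under 10 counts in any library the median of this list changed sign, from -0.26 to 0.17. Among 21 regulators of the pathway, 10 were lower and 3 higher. The Frizzled receptors split, with *Fzd5* (219.7 ± 28.5 CPM on day 0 and 40.8 ± 4.15 CPM on day 1, -2.43) and *Fzd10* (-2.92) falling and *Fzd7* (93.4 ± 4.79 CPM on day 0 and 268 ± 4.86 CPM on day 1, 1.52) and *Fzd2* (2.11) rising. *Porcn* (-1.77) and *Wls* (-1.74), which make and export Wnt ligands, fell, and so did *Tcf7l1* (199 ± 15.6 CPM on day 0 and 153 ± 15.6 CPM on day 1, -0.38), the repressor whose loss delays exit from the naive state.

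Genes of the Nodal and BMP pathways fell more often than they rose. Of 17 Nodal pathway genes, 9 were lower and 4 higher (median -0.32). *Smad7*, an inhibitor and target of both pathways, was at 56.2, 80.6 and 66.9 CPM on day 0 and 14.1, 13.6 and 14.9 CPM on day 1 (log2 fold change -2.26, SE 0.16, adjusted p = 3.06e-08), the convertases *Pcsk6* (-1.77) and *Furin* (-1.34) and the receptor *Acvr1b* (-1.35) fell, and the fall of *Lefty2* (-1.21) was lost in 5 of 14 alternative fits. *Skil* (SnoN), a Smad co-repressor, went the other way, at 41, 52.8 and 30.8 CPM on day 0 and 367, 329 and 291 CPM on day 1 (log2 fold change 2.98, SE 0.21, adjusted p = 1.19e-06). Of 17 BMP pathway genes tested, 9 were lower and 3 higher (median -0.67). They included *Bmp4* at 28.1, 22.5 and 43.3 CPM on day 0 and 3.13, 3.5 and 3.75 CPM on day 1 (log2 fold change -3.17, SE 0.22, adjusted p = 1.16e-09) and the Id genes, inhibitors of basic helix-loop-helix factors, of which *Id3* (37.7 ± 4.0 CPM on day 0 and 7.39 ± 0.263 CPM on day 1, -2.35) and *Id4* (-4.37) fell and *Id2* (4.93 ± 0.659 CPM on day 0 and 12.5 ± 2.03 CPM on day 1, 1.33) rose.

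The de novo DNA methyltransferases rose strongly. Of 14 genes of DNA methylation and demethylation, 7 were higher and 3 lower (median 0.10). *Dnmt3b* was at 229, 190.1 and 266 CPM on day 0 and 2156, 2159 and 1937 CPM on day 1 (log2 fold change 3.19, SE 0.13, adjusted p = 1.30e-09) and *Dnmt3a* at 55.9, 58.3 and 55.6 CPM on day 0 and 1067, 1049 and 1034 CPM on day 1 (log2 fold change 4.21, SE 0.13, adjusted p = 1.18e-11). Per length, *Dnmt3b* went from 100.4 ± 16.3 TPM to 868 ± 40.8 TPM and became the 158th most abundant gene, and *Dnmt3a* went from 10.9 ± 0.454 TPM to 200.5 ± 1.56 TPM. Their cofactor *Dnmt3l* rose about 2-fold (293 ± 31.5 CPM on day 0 and 592 ± 32.7 CPM on day 1, 1.01), while the maintenance enzyme *Dnmt1* was at 531 ± 26.2 CPM on day 0 and 537 ± 11.8 CPM on day 1 and not called. The dioxygenases that oxidise methylcytosine differed, with *Tet2* lower, *Tet3* higher (0.92) and *Tet1* at 639.5 ± 65.6 CPM on day 0 and 613 ± 48.8 CPM on day 1 and not called. *Zfp57*, which protects imprints, fell (664 ± 25.4 CPM on day 0 and 275 ± 30.9 CPM on day 1, -1.27). *Dnmt3b* also changed its mix of transcripts (adjusted p = 6.31e-11 from edgeR's Simes test of transcript shares). The share of its 4152-base transcript was 22.9%, 22.6% and 32.1% on day 0 and 9.38%, 10.1% and 12.2% on day 1, and that of the 4341-base transcript 0.143%, 3.38% and 0.0296% on day 0 and 10.2%, 10.6% and 7.9% on day 1.

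Germline genes, many of which are silenced by promoter methylation, rose or were not called. Of 16 tested, 12 were higher, none was lower (0 at adjusted p under 0.05 with edgeR, 0 at an unadjusted p under 0.05, and 0 with DESeq2), and the median was 0.85. *Tex19.1* was at 107 ± 10.2 CPM on day 0 and 231 ± 25.3 CPM on day 1 (1.12), *Rhox5* at 55.2 ± 6.8 CPM on day 0 and 138 ± 11.5 CPM on day 1 (1.32), *Mael* at 7.91 ± 1.14 CPM on day 0 and 34.2 ± 2.81 CPM on day 1 (2.11) and *Tdrd1* at 1.15 ± 0.159 CPM on day 0 and 5.3 ± 0.35 CPM on day 1 (2.19). Of the markers of 2-cell-like cells, 6 of 9 tested were higher and none was lower (0 at adjusted p under 0.05 with edgeR, 1 at an unadjusted p under 0.05, and 0 with DESeq2). *Zscan4f* (1.77), *Zscan4d* (2.01) and *Zscan4c* (1.31) were among them, near-identical copies whose separate values are uncertain. Of 21 imprinted genes tested, 12 were higher and 3 lower (median 0.65). *Peg10* was at 111, 75.8 and 125 CPM on day 0 and 862, 743 and 823 CPM on day 1 (log2 fold change 2.96, SE 0.19, adjusted p = 6.49e-07), *Cdkn1c* (2.12), *H19* (1.69), *Mest* (1.13) and *Peg3* (1.10) rose, and the zinc finger gene *Plagl1* fell (24.3 ± 1.98 CPM on day 0 and 1.67 ± 0.299 CPM on day 1, -3.85). The Polycomb genes changed little. Of 29, 12 were higher and 10 lower, none of them by 2-fold, from *Eed* (-0.74) to *Jarid2* (0.87).

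Genes of the amino acid response fell. Atf4 is a transcription factor whose translation rises under amino acid shortage and other stress, and its targets include amino acid transporters, synthetic enzymes and tRNA synthetases. Of 26 genes of this response, 20 were lower, 13 of them at least 2-fold, and 2 higher (median -1.04). *Asns* was at 607, 639 and 601 CPM on day 0 and 204, 204 and 216 CPM on day 1 (log2 fold change -1.57, SE 0.07, adjusted p = 1.54e-12), *Trib3* at 39.7, 41.4 and 40.3 CPM on day 0 and 10.5, 10.8 and 10.03 CPM on day 1 (log2 fold change -1.95, SE 0.10, adjusted p = 3.17e-12) and *Chac1* at 10.2, 13.9 and 10.5 CPM on day 0 and 2.46, 2.28 and 1.55 CPM on day 1 (log2 fold change -2.46, SE 0.18, adjusted p = 9.94e-10). The libraries of these 3 genes did not overlap. *Atf4* itself was at 291 ± 31.6 CPM on day 0 and 173 ± 10.7 CPM on day 1 (-0.75). The cationic transporter *Slc7a1* (-2.00), the stress protein *Nupr1* (-4.73), the serine enzyme *Psat1* (-1.32) and the proline enzymes *Aldh18a1* (-1.65) and *Pycr1* (-1.23) fell. *Slc7a3* rose (255 ± 19.96 CPM on day 0 and 404 ± 27.6 CPM on day 1, 0.66), and the rise of *Slc7a11* (0.47) was lost in 6 of 14 alternative fits.

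A letter pattern that Atf4 dimers bind, TGATGNAA on either strand, was searched in the RefSeq promoters of GRCm38.p6 (250 bases before to 50 after the start). It was present in 8 of the 23 genes of the list with a promoter there, and in 2.75% of all 11354 tested genes with one. The 8 genes were *Atf3*, *Trib3*, *Chac1*, *Asns*, *Pycr1*, *Slc7a11*, *Nupr1* and *Vldlr*, and all but *Slc7a11* fell. Their median log2 fold change was -1.77. Of the 15 genes of the list without the pattern, 11 fell, with a median of -0.80. Over all 312 genes with the pattern the median log2 fold change was -0.12, and 35.3% were called lower. Such a match is a description of the letters and not a site. The stretches around the match are shown for genes that fell and for *Slc7a11*, which did not, each 5′ to 3′ on the strand of its gene, with the pattern in capitals:
*Nupr1* (chr7:126625533-126625620, minus strand): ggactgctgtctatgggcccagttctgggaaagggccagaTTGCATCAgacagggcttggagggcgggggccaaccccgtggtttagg
*Vldlr* (chr19:27216780-27216867, plus strand): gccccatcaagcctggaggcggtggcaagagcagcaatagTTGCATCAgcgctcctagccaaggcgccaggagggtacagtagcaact
*Chac1* (chr2:119351009-119351096, plus strand): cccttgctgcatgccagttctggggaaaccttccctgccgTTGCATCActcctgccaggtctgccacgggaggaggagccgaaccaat
*Asns* (chr6:7693210-7693272, minus strand): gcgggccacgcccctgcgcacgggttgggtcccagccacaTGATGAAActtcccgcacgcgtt
*Atf3* (chr1:191183396-191183483, minus strand): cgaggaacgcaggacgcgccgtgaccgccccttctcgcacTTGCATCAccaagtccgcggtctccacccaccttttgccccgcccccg
*Pycr1* (chr11:120643804-120643891, minus strand): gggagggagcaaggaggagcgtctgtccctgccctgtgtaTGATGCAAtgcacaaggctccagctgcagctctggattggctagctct
*Slc7a11* (chr3:50443614-50443719, minus strand): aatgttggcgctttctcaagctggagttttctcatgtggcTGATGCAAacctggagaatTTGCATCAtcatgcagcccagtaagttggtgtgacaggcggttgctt

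Matches on either strand are in capitals, and *Slc7a11* holds a pair of them. For the LIF list the pattern TTCNNNGAA was searched in the same way. It was present in 2 of the 14 genes of that list with a promoter and in 8.01% of all genes with one. Of these, *Socs3* fell and *Sgk1* was not called. Among the 20 cytosolic tRNA synthetases, 10 were lower and 5 higher (median -0.18). *Sars* (255 ± 26.7 CPM on day 0 and 126 ± 3.23 CPM on day 1, -1.02) and *Nars* (-0.80) were among those that fell, and *Kars* rose most (0.57). Many genes of the Atf4 list were higher again on day 2. From day 1 to day 2, 19 of the 26 genes of that list were called higher and 4 lower, where 62.1% of all genes were called, 32.5% higher and 29.6% lower. *Chac1* reached 25.5 ± 3.3 CPM, *Trib3* 35.2 ± 4.4 CPM and *Psat1* 420.5 ± 12 CPM on day 2, and *Asns* was at 243 ± 27.4 CPM. This comparison shares the day 1 libraries with the first.

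**Figure D4:**
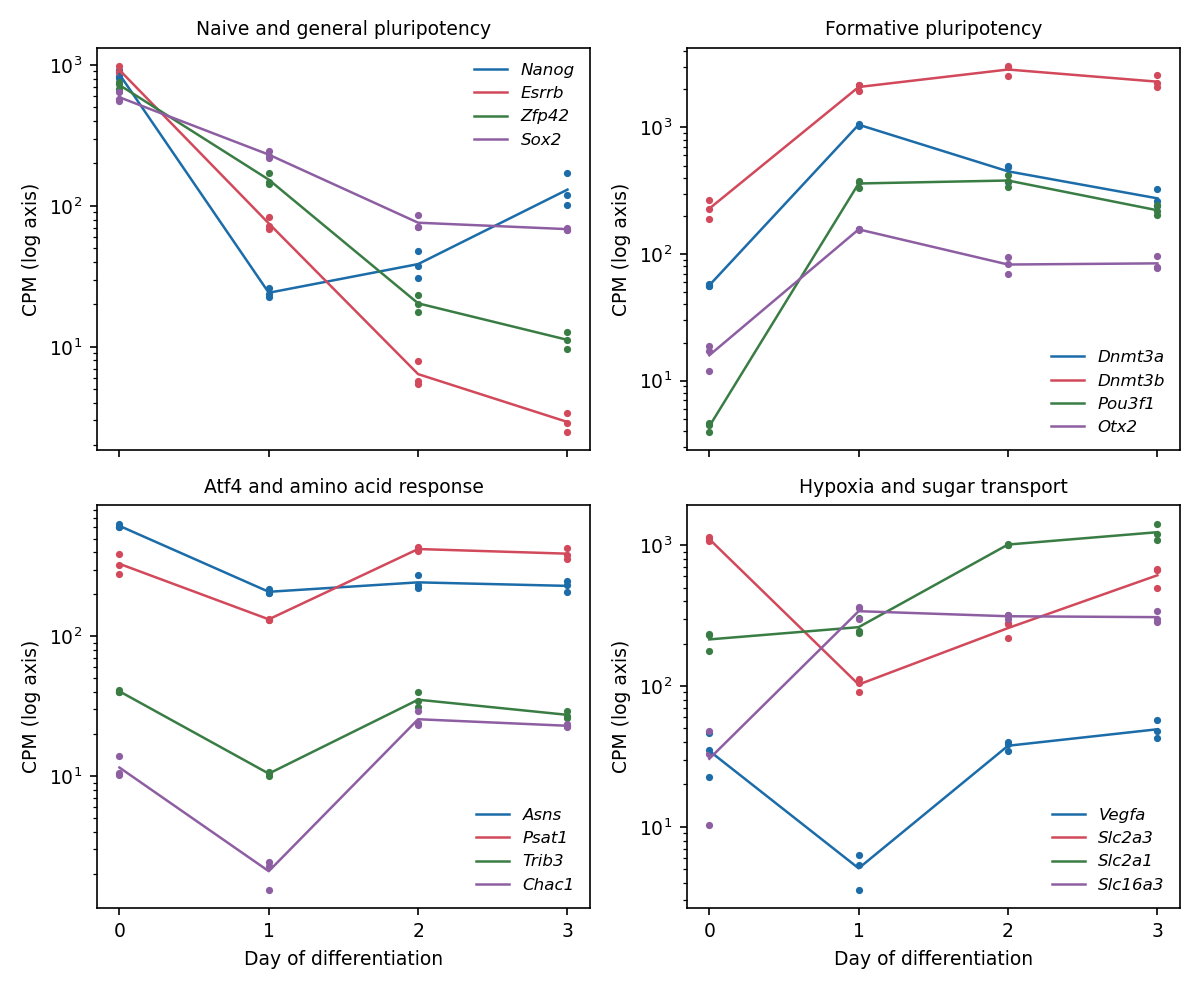
CPM on a log axis against the day of differentiation for 16 genes in 4 panels, with a point for each library (3 per day) and lines through the means. *Nanog* is lowest on day 1 and *Esrrb* and *Zfp42* go on falling, *Psat1*, *Trib3*, *Chac1* and *Vegfa* are lowest on day 1, and *Slc16a3* is near its later level by day 1, whereas *Slc2a1* rises on day 2.

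Lysosomal genes fell. Tfe3, Tfeb and Mitf are related factors that activate lysosomal genes and are held in the cytoplasm when Flcn and mTORC1 are active. Of 31 genes of the lysosome and of these factors tested, 26 were lower, 13 of them at least 2-fold, and 4 higher (median -0.82). Of the factors, *Mitf* was at 35.4, 34.1 and 36.1 CPM on day 0 and 1.71, 0.836 and 2.85 CPM on day 1 (log2 fold change -4.30, SE 0.21, adjusted p = 4.54e-12) and *Tfeb* at 63.4, 58.5 and 58.2 CPM on day 0 and 4.24, 4.71 and 4.0 CPM on day 1 (log2 fold change -3.79, SE 0.11, adjusted p = 1.19e-15). *Tfe3* was higher, at 160.4, 148 and 156 CPM on day 0 and 273, 285 and 273 CPM on day 1 (log2 fold change 0.84, SE 0.06, adjusted p = 2.33e-10). The membrane protein *Lamp2* (88 ± 7.91 CPM on day 0 and 26.4 ± 1.55 CPM on day 1, -1.73) and the hexosaminidase subunit *Hexa* (-1.68) fell about 3-fold, *Gaa* (-1.54) and *Glb1* (-1.41) somewhat less, and the abundant *Lamp1* (-0.47) and *Ctsd* (-0.21) by less than 1.5-fold. The rise of *Gusb* was lost in 10 of 14 alternative fits. The letters TCACGTG, the core that factors of this family bind, were found on either strand in the promoters of 9 of 25 genes of the list and in 6.85% of all genes with a promoter. All 9 fell, with a median of -0.59, and 12 of the 16 without the letters fell, with a median of -0.90. Over all 778 genes with these letters the median was -0.03. These stretches are shown because their genes span much of the range of the fall, from *Gaa* to *Lamp1*, again with the letters in capitals:
*Gaa* (chr11:119267782-119267868, plus strand): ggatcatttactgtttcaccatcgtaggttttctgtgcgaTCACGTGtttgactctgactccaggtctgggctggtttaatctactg
*Glb1* (chr9:114400989-114401075, plus strand): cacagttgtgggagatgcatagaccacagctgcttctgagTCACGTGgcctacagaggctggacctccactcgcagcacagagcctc
*Gla* (chrX:134601153-134601255, minus strand): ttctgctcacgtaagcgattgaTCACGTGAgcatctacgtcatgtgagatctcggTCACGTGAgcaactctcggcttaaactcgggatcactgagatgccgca
*Lamp1* (chr8:13159059-13159160, plus strand): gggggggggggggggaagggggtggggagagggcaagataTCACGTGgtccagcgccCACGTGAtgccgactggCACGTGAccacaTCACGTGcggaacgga

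The regulators of mTORC1, the subject of the study's knockouts, moved little. Of 36, 10 were higher (6 to 13 over the alternative fits) and 7 lower, both under the shares of all genes, and the median was 0.03, with a sign that changed with limma on TPM (-0.05). *Fnip1*, the partner of Flcn, fell 2-fold (63.9 ± 5.16 CPM on day 0 and 31.6 ± 1.21 CPM on day 1, -1.02), and *Flcn* fell less (-0.54). *Tsc2* was at 178 ± 16.1 CPM on day 0 and 177 ± 8.67 CPM on day 1 and not called, and *Tsc1* fell (-0.41). The Gator1 genes had low or moderate levels. *Depdc5* fell (65.5 ± 0.649 CPM on day 0 and 47 ± 2.74 CPM on day 1, -0.48), and the fall of *Nprl2* (14.8 ± 0.754 CPM on day 0 and 12.1 ± 0.238 CPM on day 1, -0.30) and the rise of *Nprl3* (13.3 ± 0.996 CPM on day 0 and 16.4 ± 1.95 CPM on day 1, 0.30) were lost in 4 and 6 of 14 alternative fits. *Mios* (0.82), *Rragb* (0.80) and *Rragd* (0.59) rose, and *Rictor* (69 ± 7.77 CPM on day 0 and 69.2 ± 3.09 CPM on day 1) was not called.

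Of 25 genes named in the study's text on its screens, 11 were lower and 4 higher. The 4 that fell at least 2-fold were *Klf4*, *Tfcp2l1*, *Esrrb* and *Stat3*. *Vps39* (-0.74), *Ctnnb1* (796 ± 21.6 CPM on day 0 and 1016 ± 19.4 CPM on day 1, 0.35) and *Stk11* (0.31) changed less, and *Apc* (144 ± 5.16 CPM on day 0 and 139.6 ± 3.45 CPM on day 1), *Znrf3* (24.7 ± 2.96 CPM on day 0 and 26.5 ± 1.41 CPM on day 1) and *Kcmf1* (128 ± 5.23 CPM on day 0 and 129 ± 3.58 CPM on day 1) were not called.

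Sugar metabolism changed gene by gene. Of 25 genes of glycolysis and its transporters, 13 were higher and 8 lower (median 0.21). The other major glucose transporter, *Slc2a1* (Glut1), was at 229.6, 235 and 179 CPM on day 0 and 302, 247 and 236 CPM on day 1 and not called in the fit of all days. It was called higher with DESeq2, with the replicate block and without day 1 replicate 3 (adjusted p = 0.0156, 0.0114 and 0.0392). It rose on day 2 to 1010.3 ± 14.6 CPM (log2 fold change 1.95, SE 0.13, adjusted p = 7.56e-08). The lactate exporter *Slc16a3* was at 33, 48.1 and 10.2 CPM on day 0 and 364, 356 and 299.8 CPM on day 1 (log2 fold change 3.46, SE 0.39, adjusted p = 6.82e-05), with a wide spread on day 0. The isoenzymes of hexokinase, phosphofructokinase and aldolase that fell were *Hk1* (-1.71), *Pfkp* (193 ± 26.9 CPM on day 0 and 53 ± 2.69 CPM on day 1, -1.87) and *Aldoc* (-1.68), while *Pfkm* (1.08), *Aldoa* (0.30), *Pkm* (0.51) and *Gapdh* (0.21) rose. *Ldha* rose (386 ± 115 CPM on day 0 and 657 ± 107 CPM on day 1, 0.76), a call that was lost when the day 0 and day 1 libraries were fitted alone. Of 18 hypoxia targets, 7 were lower (the share of all genes being 30.8%), each at least 2-fold, and 2 higher. *Vegfa* was at 35.2, 46.1 and 22.7 CPM on day 0 and 6.33, 5.32 and 3.59 CPM on day 1 (log2 fold change -2.77, SE 0.29, adjusted p = 1.47e-05), and *Ndrg1* (-2.48), *P4ha2* (-1.36) and *Kdm3a* (-1.34) fell.

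Most genes of cholesterol synthesis rose by less than 2-fold. Of 25 genes, 20 were higher, where 30.1% of all genes were, and 2 lower (median 0.59). *Hmgcs1* was at 407, 457 and 402 CPM on day 0 and 731, 796 and 696 CPM on day 1 (log2 fold change 0.81, SE 0.07, adjusted p = 2.00e-08), *Fdps* (0.86), *Idi1* (0.84) and *Cyp51* (0.79) rose by similar amounts, and the sterol isomerase *Ebp* fell (27.3 ± 3.15 CPM on day 0 and 9.91 ± 1.23 CPM on day 1, -1.46). Of 18 genes of fatty acid synthesis tested, 8 rose, among them *Fasn* (532 ± 44.1 CPM on day 0 and 1079 ± 49 CPM on day 1, 1.02) and *Acaca* (1.01), and 4 fell, among them *Acss2* (-1.54). Of 79 nuclear genes of oxidative phosphorylation tested, 39 were lower and 1 higher, by small amounts (median -0.14), such as *Cox5a* (-0.60) and *Ndufb4* (-0.68), and the abundant *Atp5b* was at 1951 ± 74 CPM on day 0 and 2016 ± 39.6 CPM on day 1 and not called. Of 20 Nrf2 and metal response genes, 12 rose, led in this list by *Hmox1* (62.1 ± 2.82 CPM on day 0 and 155 ± 9.58 CPM on day 1, 1.32) and *Gclm* (1.22) among genes whose log2 CPM averaged 1 or more, and 2 fell.

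Genes of growth and division rose by small amounts. Of 29 S phase genes, 20 were higher and none was lower (0 at adjusted p under 0.05 with edgeR, 0 at an unadjusted p under 0.05, and 0 with DESeq2), with a median of 0.28. The counts were 13 higher and 1 lower of 26 mitosis genes (median 0.18), 22 higher and 2 lower of 32 ribosome biogenesis genes (median 0.29), and 27 higher and 1 lower of 38 proteasome genes tested (median 0.27). Of 19 G1 cyclins, their kinases and Cdk inhibitors, 9 were higher and 9 lower (median -0.14). *Ccne1*, the cyclin that drives entry into S phase, was at 164, 152 and 164 CPM on day 0 and 345, 340.5 and 338 CPM on day 1 (log2 fold change 1.09, SE 0.06, adjusted p = 2.47e-11), and *Cdc6* (0.77), *Ung* (0.79), *Top2a* (0.50) and *Cdk1* (0.50) rose. The Cdk inhibitors *Cdkn1a* (p21), at 83, 90.8 and 68.3 CPM on day 0 and 29.7, 38 and 25.7 CPM on day 1 (log2 fold change -1.37, SE 0.17, adjusted p = 3.08e-05), and *Cdkn1b* (p27, -1.14) fell, while the inhibitor *Cdkn1c* (p57) rose (9.08 ± 2.03 CPM on day 0 and 39.7 ± 3.08 CPM on day 1). Nucleolar *Ncl* (0.44), *Ddx21* (0.67) and *Nhp2* (0.78) rose. Of 80 cytosolic ribosomal protein genes tested, 23 were lower and 8 higher, but the number that fell was 12 to 52 over the alternative fits, and the median was close to 0 (-0.08). Of 78 mitochondrial ribosomal protein genes, 28 rose and 9 fell (median 0.12). Among p53 targets, 7 of 20 tested rose and 5 fell. The BH3-only gene *Pmaip1* (Noxa) was at 4.83, 5.17 and 4.33 CPM on day 0 and 79.6, 78.7 and 74.1 CPM on day 1 (log2 fold change 4.01, SE 0.12, adjusted p = 2.20e-15), while *Trp53* was at 381 ± 30.3 CPM on day 0 and 397 ± 18.2 CPM on day 1 and not called. Of 21 FoxO and insulin genes, 8 rose, among them *Foxo1* (37.2 ± 1.56 CPM on day 0 and 79.1 ± 3.98 CPM on day 1, 1.09), and 5 fell. Of 19 Lin28 and let-7 genes, 9 rose and 3 fell, and of 17 immediate early genes tested, 2 rose (2 to 5 over the alternative fits) and 7 fell (5 to 9). Of 14 retinoic acid targets tested, 4 rose, among them the receptor *Rarg* (109 ± 16.5 CPM on day 0 and 385 ± 7.45 CPM on day 1, 1.82), and 4 fell. Over all genes tested, 30.1% were higher and 30.8% lower, and the p53, FoxO and retinoic acid lists were not far from these shares.

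Of 23 genes of cadherins, tight junctions and epithelial-mesenchymal transition, 8 rose and 3 fell, where 30.1% of all genes were higher, so the share that rose was near that of all genes. *Cdh1* (E-cadherin) was at 332, 301 and 284 CPM on day 0 and 795, 783 and 719 CPM on day 1 (log2 fold change 1.33, SE 0.07, adjusted p = 4.57e-12) and *Epcam* at 52.9, 56.5 and 39.2 CPM on day 0 and 276, 265 and 241 CPM on day 1 (log2 fold change 2.39, SE 0.10, adjusted p = 1.37e-11). *Vim* (vimentin), an intermediate filament of mesenchymal cells, was at 389, 401 and 391 CPM on day 0 and 84.1, 80.01 and 83.8 CPM on day 1 (log2 fold change -2.25, SE 0.09, adjusted p = 2.12e-13). For all 3 genes the libraries of the days did not overlap. *Cdh2* (N-cadherin) rose from a low level (12.1 ± 0.461 CPM on day 0 and 25.9 ± 0.781 CPM on day 1, 1.10), *Zeb1* fell (-1.40), and the claudin gene *Cldn6* rose (1.81). The actin-binding genes *Flna* (958 ± 151 CPM on day 0 and 1646 ± 76.2 CPM on day 1) and *Actn4* (549.9 ± 112 CPM on day 0 and 1282 ± 54.3 CPM on day 1), chosen after their values were seen, rose as well (0.78 and 1.22).

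The cells were checked against markers of mESCs and of other cell types. Of the mESC markers, *Pou5f1*, *Sox2*, *Utf1* and *Dppa5a* were at 217.7 CPM or more in all 6 libraries. The other markers of that list, *Nanog*, *Esrrb* and *Zfp42*, fell on day 1 (log2 fold changes -5.15, -3.62 and -2.23). Summed CPM of the 15 primitive endoderm markers was 1268 to 1635 on day 0 and 957 to 1096 on day 1, and 11 of 15 fell. Most of it came from basement membrane genes such as *Lamc1* (683 ± 104 CPM on day 0 and 470.1 ± 24.8 CPM on day 1, -0.54), *Sparc* (-0.37) and *Lama1* (-1.77), and *Gata4* was at 6.25 ± 2.02 CPM on day 0 and 1.61 ± 0.268 CPM on day 1 (-1.95). The 15 primitive streak and mesendoderm markers summed to 23.6 to 24.3 CPM on day 0 and 14.6 to 15.3 CPM on day 1, with *Eomes* highest (10.4 ± 0.77 CPM on day 0 and 7.32 ± 0.737 CPM on day 1, not called in this fit). Of 16 early neural markers, which summed to 184 to 192 and 44.8 to 47.7 CPM, 4 of 11 tested fell (2 to 5 over the alternative fits) and 2 rose (0 to 3). *Tubb3* (99.99 ± 4.87 CPM on day 0 and 12.6 ± 2.22 CPM on day 1, -2.98) and *Ncam1* (-3.13) fell. Among those that rose, *Hes3* (0.102 ± 0.0487 CPM on day 0 and 2.28 ± 0.429 CPM on day 1) was near the limit of detection on day 0 and was named after its values were seen. *Nes* was at 12.4 ± 3.66 CPM on day 0 and 11.8 ± 0.286 CPM on day 1 and not called. The 15 trophoblast markers summed to 75.8 to 84 and 20.6 to 23.6 CPM, most of the former from *Tfap2c* (57.1 ± 2.7 CPM on day 0 and 2.11 ± 0.177 CPM on day 1, -4.75), which mESCs express too, and *Cdx2*, *Elf5* and *Hand1* were under 1 CPM in all 6 libraries. The 18 feeder fibroblast markers summed to 63.5 to 99.2 CPM on day 0 and 66.7 to 70.1 CPM on day 1, and of 14 tested 6 fell and 2 rose. *Col1a1* was at 10.8 ± 5.27 CPM on day 0 and 3.24 ± 0.805 CPM on day 1 (-1.71), *Lum* and *Twist2* were at no more than 1 count in any of the 6 libraries, and *Fap* was at 0 in all 6. Whether other cells have a part in the falls of *Vim*, *Sparc* and *Lamc1* was not tested. In bulk RNA, fewer cells that express a gene and less of its RNA per cell cannot be told apart.

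Transcript use was tested apart from level, with another test and in fewer genes, so the counts of the tests cannot be compared. Of 3382 genes with at least 2 transcripts passing the filter, 55 (1.63%) had a transcript whose share of the gene changed (adjusted p under 0.05 from edgeR's Simes test), 51 of them at 10 CPM or more, and in 38 of these the share moved by at least 10 percentage points. The number was 90 when the day 0 and day 1 libraries were fitted alone (40 of the 55 among them). It was 195 with edgeR's gene-level F test (all 55 among them) and 36 without day 1 replicate 2 (31 of the 55 among them). kallisto divides reads between overlapping transcripts with an uncertainty that the files do not give. *Arhgap32*, which encodes a GTPase-activating protein, moved most among genes at 10 CPM or more other than *Fgf5*. Its 9969-base transcript held 6.09%, 0.552% and 0% on day 0 and 63.8%, 67.5% and 60.6% on day 1 (adjusted p = 9.56e-06). The 5191-base transcript of *Kdm2b*, which brings Polycomb to CpG islands, held 35.4%, 37.1% and 37.4% on day 0 and 70.6%, 70.3% and 69% on day 1 (adjusted p = 9.85e-04), while the gene rose (0.83). In *Zfp710* the 4486-base transcript held 69.2%, 68.4% and 58.7% on day 0 and 19.7%, 26.6% and 26.9% on day 1, and in *Schip1* the 1625-base transcript held 24.3%, 20.3% and 31.3% on day 0 and 72%, 69.5% and 67.3% on day 1. The libraries of these genes did not overlap. *Fgf5*, with few counts on day 0, had all of them assigned to a 2449-base transcript, which held 11.9%, 22.4% and 24.5% on day 1.

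**Figure D5:**
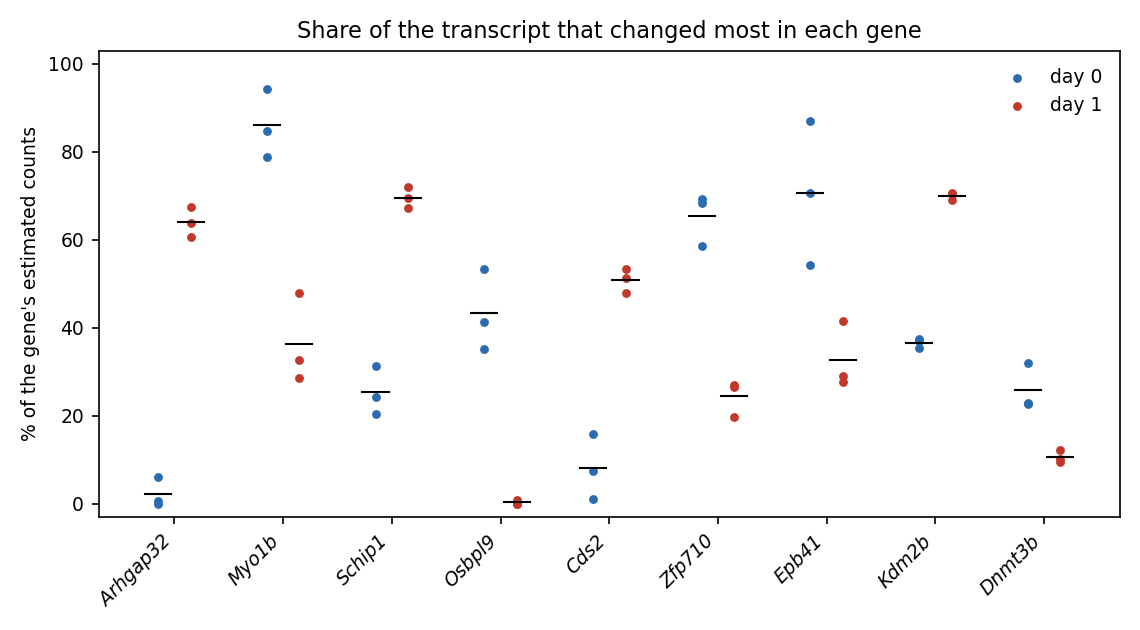
Share of the gene's estimated counts, in %, of the transcript that changed most in each of 9 genes, with a point per library (3 on day 0, blue, and 3 on day 1, red) and bars at the means. The share of the *Arhgap32* transcript goes from under 7% to over 60%, and that of the *Kdm2b* transcript from under 38% to over 68%.

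The first step differed from the second in most genes. For each gene the change from day 0 to day 1 was tested against that from day 1 to day 2, and 8388 genes differed (58.3%), 4153 with the larger value in the first step (28.9%) and 4235 with the smaller (29.4%). From day 2 to day 3, 4525 genes were called (31.5%). *Enpp2* (difference of the 2 log2 fold changes 8.03, SE 0.38, adjusted p = 1.41e-09) had the largest positive value and *Jdp2* (difference of the 2 log2 fold changes -8.93, SE 0.53, adjusted p = 8.64e-11) the most negative among genes whose log2 CPM averaged 1 or more. Some rises were brief. *Wt1* was at 43.8 ± 8.32 CPM on day 2, *Pax8* went from 0.938 ± 0.19 CPM on day 0 and 11.9 ± 2.15 CPM on day 1 to 0.595 ± 0.169 CPM on day 2, and *Ryr3* from 2.65 ± 0.481 CPM on day 0 and 46.1 ± 3.15 CPM on day 1 to 3.76 ± 0.497 CPM. Others held, such as *Fgf5* (74 ± 10.4 CPM on day 2), *Pou3f1* (381 ± 41.7 CPM) and *Car4* (27 ± 3.08 CPM). Some falls were partly undone. *Hes1*, a Notch and LIF responsive repressor chosen after its values were seen, was at 47.5 ± 5.07 CPM on day 0 and 3.63 ± 0.155 CPM on day 1 and at 19.2 ± 4.81 CPM on day 2, *Nupr1* was at 10.02 ± 0.183 CPM, and *Nanog* went from its day 1 level to 38.6 ± 8.53 CPM on day 2 (log2 fold change 0.68, SE 0.23, adjusted p = 0.0294) and 130.5 ± 36.2 CPM on day 3. Of the 1646 genes that fell at least 2-fold on day 1, 863 were called higher and 266 lower on day 2. Of the 1204 that rose at least 2-fold, 426 were called lower and 458 higher. Over all genes tested, 32.5% were called higher and 29.6% lower from day 1 to day 2. Both steps share the day 1 libraries by which these genes were selected, so an error in them raises the number that reverse.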

How the data were processed

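The authors quantified reads with kallisto 0.42.1 and deposited estimated counts and TPM per transcript for each library. The submitters' processing notes also name DESeq2, without a version, and mm10. Whether the time-course libraries were stranded is not given in the sources used here, so overlapping and antisense genes cannot be told apart. The deposited estimated counts of 34079 transcripts were summed to 24296 genes with the RefSeq table of GRCm38.p6 (174 transcripts matched no gene and were left out, 2.56% to 3.57% of the counts) and rounded. The authors' TPM were summed per gene and used for levels between genes.

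Genes passing filterByExpr (14382) were fitted in 12 time-course libraries (R 4.3.3, edgeR 4.0.16) after TMM scaling, by a robust quasi-likelihood fit and Benjamini-Hochberg adjustment, and called at 0.05. SE is the absolute log2 fold change divided by the square root of F. CPM are relative to the TMM-scaled library size. Transcript shares were tested with diffSpliceDGE on transcripts passing the same filter.

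Alternatives were DESeq2 1.42.0, upper-quartile scaling, no filter, a minimum of 10 counts per library, a block for the replicate number, the day 0 and day 1 libraries alone, limma 3.58.1 on log2(TPM + 1) and log2(TPM + 0.1), and leaving out each of the 6 libraries. The model was tested on simulated counts. Intervals and limits of 0 counts cover counting error only.

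The members and lists were chosen with earlier results of these data known. Named genes were every member of the 3 pluripotency lists, screen genes, up to 5 called members each way and the 3 with most TPM per other list, the 15 largest rises and falls, the 10 largest CPM changes each way, the 10 largest transcript share changes and the 10 largest differences between steps each way, of which some are printed. *Aldh18a1*, *Dnmt1*, *Egr2*, *Gaa*, *Gla*, *Glb1*, *Psat1*, *Pycr1* and *Tet1* fall outside that rule and were chosen after their values were seen, as were the markers named at or near 0. A list of replication-dependent histones matched no gene. The other 6 libraries of the series were not used here.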

Additional observations from a re-analysis of the deposited data

Results flagged for a closer look

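For 8388 of the 14382 genes tested (58.3%) the change from day 0 to day 1 differed from the change from day 1 to day 2 (edgeR's quasi-likelihood test of the difference, adjusted p under 0.05). These genes drew attention because the same contrast of neighbouring days gave different effects. Of all genes tested, 30.1% were called higher and 30.8% lower in the first step, and 32.5% higher and 29.6% lower in the second. With shares this large, many genes fall in both groups of calls whether or not the steps are related. Among the 14382 genes, 1994 were called higher on day 1 and then lower on day 2, such as *Ryr3* (log2 fold changes 4.13 and -3.61), *Pax8* (3.66 and -4.29) and *Dnmt3a* (4.21 and -1.22). Another 1925 were called lower on day 1 and then higher on day 2, such as *Nupr1* (-4.73 and 3.20), *Vldlr* (-3.01 and 4.91) and *Slc2a3* (-3.43 and 1.33). The comparisons share the day 1 libraries, so an error in these moves both changes of a gene in opposite directions.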

How the results depend on the processing

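The count of genes called on day 1 (8754) was 7951 to 8637 when 1 of the 6 libraries was left out and stayed within 1.5 times under every alternative run. The count with at least a 2-fold change (2850) was 2818 to 2977 without 1 library, 1784 among genes with at least 10 counts in every library, where fewer genes were tested, and 1721 with limma on log2(TPM + 1), whose pseudocount shrinks the changes of low genes. The count of genes with a changed transcript share (55) was 36 to 50 without 1 library, and 28 to 35 of the 55 stayed called. With at least 10 counts in every library it was 64, with 31 of the 55 among them. The count was 90 with the day 0 and day 1 libraries alone and 195 with the gene-level F test, and the cause was not tested. The 1 naive gene called higher became 2, with *Fgf4*, under DESeq2, at least 10 counts, the replicate block and the day 0 and day 1 libraries alone. Without 1 library the naive list had 1 higher and 16 lower, the formative list 16 to 18 higher and 0 lower, and the general list 5 higher and 3 lower. No direction of a called gene named here reversed, and of 235 such genes 226 were called in each of the alternatives that could be fitted for them.

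Deviations of same-numbered day 0 and day 1 libraries from their day means correlated at 0.04, 0.0345 and 0.0875, so the numbers were not taken to pair the samples, although each library correlated best with its own number on the other day. With the replicate block 8839 genes were called (4392 higher and 4447 lower), 2859 with at least a 2-fold change, and 45 with a changed transcript share, and from day 1 to day 2 it was 8961, from day 2 to day 3 4571 and for the difference of steps 8417. Libraries of 12503005 to 15305054 counts leave genes near 3 counts (0.199 to 0.245 CPM) with imprecise folds.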
